A study of Mus musculus with 6 samples.

Results

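Granins are the acidic proteins that fill the dense-core granules of endocrine cells and neurons together with the peptide hormones, and a small set of membrane and docking proteins sits on the same granules. The 8 genes described here, all 8 found among the 21813 gene symbols of the deposited table, are the granins Chga, Chgb, Scg2, Scg3 and Vgf, the granule membrane proteins Ptprn and Ptprn2, and the docking protein Sytl4. They were chosen by symbol, and where a symbol had several transcripts the one with the highest mean RPKM over the 6 libraries was taken. All 8 passed the filter of a mean of at least 1 RPKM and stand among 12652 genes tested. RPKM, the reads per kilobase of transcript scaled for the depth of the library, can be compared between genes because it is scaled for length.

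Islets came from 3 male Ucn3 null mice and from 3 male wild-type littermates. All 6 mice were adults of 3 months, each mouse gave 1 library, and no other allele, agent or treatment is named for either genotype. Ucn3 encodes urocortin 3, a peptide of the corticotropin-releasing factor family that beta cells release with insulin and that acts through receptors coupled to cyclic AMP. The cell type is labelled mixed, although the extraction text mentions a sort of cells, and the sources used here do not say how the null allele was made.

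In an endocrine cell, granins are sorted with prohormones at the trans-Golgi network, aggregate with them in the presence of calcium, and help the granule to bud. Chromogranins and secretogranins are also cut into smaller peptides by the prohormone convertases. IA-2, the product of Ptprn, and IA-2β or phogrin, the product of Ptprn2, span the granule membrane, resemble receptor tyrosine phosphatases but lack ordinary phosphatase activity, and are targets of autoantibodies in type 1 diabetes. Granuphilin, the product of Sytl4, binds Rab27a and syntaxin and holds granules at the plasma membrane.

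Upstream sequence was found for 7 of the 8 genes in a RefSeq table of the mouse build GRCm38.p6, and not for Vgf. The expression table was made on the mm9 build, so the coordinates below belong to the RefSeq table alone. The sequences of Chga, Chgb and Scg2 are shown because cyclic AMP signalling reaches genes through the cyclic AMP response element, with the letters TGACGTCA, which CREB binds. Each line gives the 120 bases before the annotated start of transcription, 5′ to 3′ on the strand of the gene, and capitals mark TGACGTCA or, in Chga, the related letters TGACGTAA.
Chga (chr12:102554821-102554940, plus strand): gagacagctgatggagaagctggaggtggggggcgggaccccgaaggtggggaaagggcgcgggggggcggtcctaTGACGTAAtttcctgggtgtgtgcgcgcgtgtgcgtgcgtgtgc
Chgb (chr2:132781522-132781641, plus strand): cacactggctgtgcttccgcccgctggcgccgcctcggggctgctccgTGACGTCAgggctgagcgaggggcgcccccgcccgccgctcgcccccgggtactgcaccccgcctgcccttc
Scg2 (chr1:79440027-79440146, minus strand): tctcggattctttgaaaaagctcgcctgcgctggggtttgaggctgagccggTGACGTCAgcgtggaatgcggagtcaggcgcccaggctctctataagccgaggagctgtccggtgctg

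TGACGTCA, which reads the same on both strands, began 72 bases before the start of Chgb and 68 bases before that of Scg2. TGACGTAA began 44 bases before the start of Chga. Over the 250 bases upstream of each start, TGACGTCA was found on either strand in 2.66% of 11255 promoters of tested genes, and TGACGTAA in 0.702% of them. TGACGTAA was the only variant of the full element searched. The 0.702% is thus the share of that exact string, and the share with any related string was not counted. The shorter core TGACG, which both of these motifs contain, was found on either strand upstream of 5 of the 8 listed starts of the 7 genes, those already shown, that of Scg3 and 1 of the 2 starts of Ptprn, against 26.6% of the same promoters. These are matches of letters in a window, and no binding was measured.

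The null genotype was checked on Ucn3 itself, which stood at 1.61, 1.63 and 1.80 RPKM in null islets, against 136, 157 and 155 RPKM in wild-type islets (log2 difference -5.81, SE 0.08, limma adjusted p = 6.6e-08). The depth of the libraries, read from the steps between low RPKM values, was 46490000 to 51920000 reads in null and 42610000 to 48490000 reads in wild type. The insulin genes Ins1 and Ins2, which mark beta cells, held 45.8% to 50.1% of all RPKM in null and 49.0% to 53.7% in wild type. Markers of exocrine acinar cells differed widely between libraries: 35 genes made up 7.53%, 4.21% and 1.51% of all RPKM in Ucn3 null replicates 1 to 3, against 2.02%, 0.158% and 0.758% in wild type replicates 1 to 3. Of those 35 genes none was at 0 in all libraries, and the mean log2(RPKM + 1) of the 34 tested ran from 6.38 to 8.33 in null and from 3.58 to 6.59 in wild type. All 34 were higher in null, with a median log2 difference of 2.41, 33 of them at an unadjusted limma p under 0.05. None passed after adjustment. Over all genes tested the median was -0.03, 61.7% of differences were negative and 1.46% of genes were higher at that unadjusted p. Markers of delta cells, which also carry granins, summed to 698 to 1100 RPKM in null and to 1760 to 2419 RPKM in wild type over 6 genes. Most of that sum was Sst, at 643 to 1035 RPKM in null and 1676 to 2320 RPKM in wild type, and of the 5 delta markers tested 3 were lower and 1 was higher at an unadjusted p under 0.05. In whole islets, fewer cells of a type and less RNA per cell cannot be told apart.

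The granins were among the most abundant transcripts of the islet apart from Vgf, and their total did not differ between genotypes beyond the spread of the animals. The 5 granin genes together held 5196, 5819 and 5853 RPKM in null libraries, against 5181, 5685 and 5584 RPKM in wild-type libraries. That was 1.20 ± 0.071% of all RPKM in null and 1.14 ± 0.029% in wild type (SD, n = 3 each), with null replicate 1 inside the wild-type range. Among the 12652 genes tested, ordered by mean level, Chga had rank 6, Scg2 rank 12, Scg3 rank 51, Chgb rank 61, Ptprn2 rank 156, Ptprn rank 288, Sytl4 rank 595 and Vgf rank 7924. The order of the 8 levels was the same in all 6 libraries. Scg3 and Chgb were the only neighbours in that order whose ranges over the libraries overlapped, at 285 to 332 RPKM and 227 to 294 RPKM, with Scg3 above Chgb in 6 of 6 libraries.

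**Figure D1:**
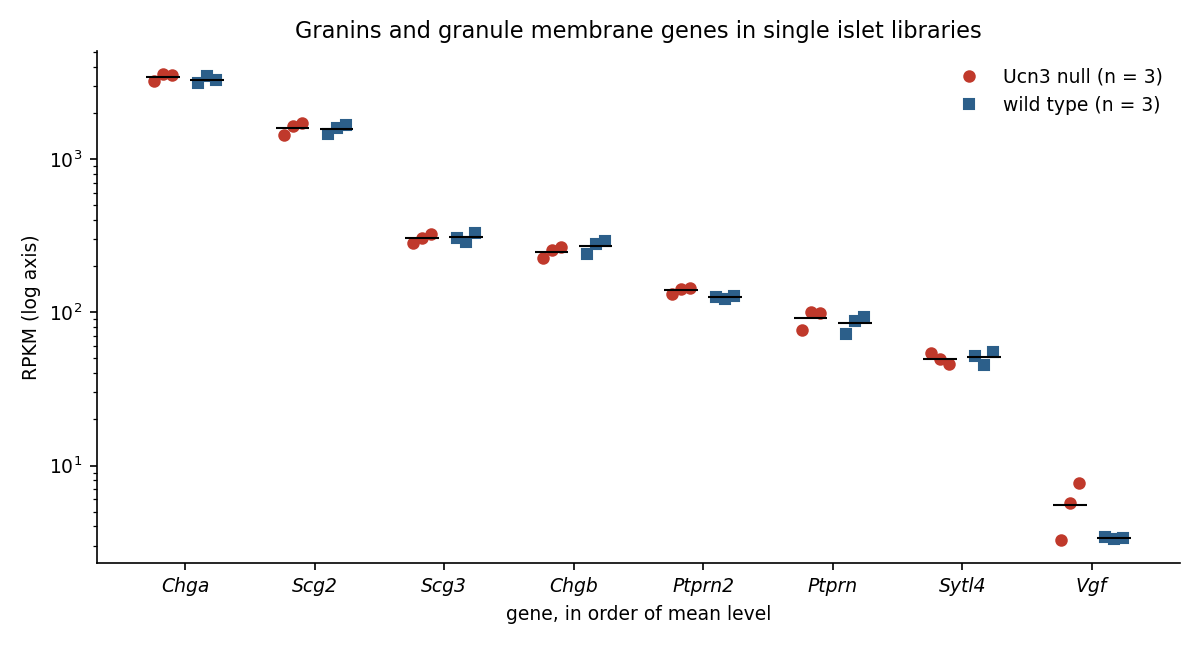
RPKM (log axis) of the 8 genes in each library, in order of mean level, with red circles for Ucn3 null (n = 3), blue squares for wild type (n = 3) and black lines for group means. Levels run from Chga at 3169 to 3605 RPKM down to Vgf at 3.28 to 7.70 RPKM, and the genotypes overlap for each gene but Ptprn2.

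No granin or granule membrane gene passed the comparison of null with wild-type islets. In limma with Benjamini-Hochberg adjustment over all genes, 0 of the 8 passed an adjusted p of 0.05, where 2 of 12652 genes, or 0.0158%, passed as lower and 0% as higher. At an unadjusted p under 0.05 there was 1 of the 8, Vgf, against 9.36% of all genes in either direction and 1.46% as higher. Groups without overlap were found for 1 of the 8, Ptprn2, which was higher in null. Over all genes, 15.2% had groups without overlap, 1.9% higher and 13.2% lower in null. Over the 8 genes 5 differences were positive and 3 negative, with a median of 0.04 on the log2(RPKM + 1) scale, against a median of -0.03 over all genes tested. Limma-voom on estimated reads also called 0 of the 8.

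Chga encodes chromogranin A, which promotes granule formation and is the precursor of peptides such as pancreastatin. It stood at 3234, 3605 and 3528 RPKM in null libraries, against 3169, 3509 and 3272 RPKM in wild-type libraries. The genotypes overlapped, and replicate 1 was the lowest of each. The log2 difference was 0.06 (SE 0.17, limma adjusted p = 0.95), and its 95% interval ran from a fold of 0.80 to 1.36. About 254262 to 326135 reads stood behind each value, so counting error was not the limit on the precision.

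Chgb encodes chromogranin B, another major soluble granin of the beta cell granule. It stood at 227, 256 and 266 RPKM in null libraries, against 241, 279 and 294 RPKM in wild-type libraries. The lowest library was null replicate 1 and the highest wild type replicate 3, with the other libraries mixed between. The log2 difference was -0.12 (SE 0.11, limma adjusted p = 0.79), with a 95% interval from a fold of 0.77 to 1.11. It was the most negative of the 8 differences, and it turned to 0.048 with the acinar mean as a covariate.

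Scg2 encodes secretogranin II, the precursor of secretoneurin. Its levels were 1447, 1646 and 1728 RPKM in null libraries, against 1462, 1603 and 1682 RPKM in wild-type libraries. Replicate 1 was again the lowest of each genotype, and the remaining libraries overlapped. The log2 difference of 0.02 (SE 0.15, limma adjusted p = 0.98) had a 95% interval from a fold of 0.80 to 1.28.

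Scg3, secretogranin III, binds chromogranin A and cholesterol-rich granule membrane and so links the granin aggregate to the membrane. It held 285, 307 and 324 RPKM in null libraries, against 306, 290 and 332 RPKM in wild-type libraries. The ranges lay almost on each other. The log2 difference was -0.02 (SE 0.10, limma adjusted p = 0.97), with a 95% interval from a fold of 0.84 to 1.16. The table lists 2 transcripts of Scg3, and the other, at 283, 305 and 321 RPKM in null and 304, 288 and 330 RPKM in wild type, gave the same log2 difference of -0.02.

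Vgf, a granin-like precursor first known as a target of nerve growth factor, was the member that varied most. Null libraries held 3.28, 5.67 and 7.70 RPKM, against 3.41, 3.30 and 3.35 RPKM in wild-type libraries. The 3 wild-type animals lay between 3.30 and 3.41 RPKM, null replicates 2 and 3 lay above all of them, and null replicate 1 lay below all of them. The coefficient of variation was 39.8% in null and 1.63% in wild type. These values stand for about 435, 696 and 914 reads in null and 371, 405 and 414 reads in wild type. At such counts the error of counting alone is larger than 1.63%, so the close wild-type values do not show a steady level. For the same reason, the place of null replicate 1 just below them is within counting error. The mean was 5.55 ± 2.21 RPKM in null and 3.35 ± 0.054 RPKM in wild type (SD, n = 3 each), a ratio of 1.66. The log2 difference was 0.53 (SE 0.23, limma adjusted p = 0.53), with a 95% interval from 0.01 to 1.06 on the same scale, and 1.72% of genes tested had a larger difference in size. Single null animals moved this value: it was 0.298 without null replicate 3 (adjusted p = 0.60) and 0.809 without null replicate 1 (adjusted p = 0.22).

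Markers of other endocrine cells and of Schwann cells and neurons took the same order in the null libraries. That order was not particular to Vgf and these markers. Chgb, Scg2, Scg3, Ptprn2 and Sst also rose from null replicate 1 to 3, while the acinar share fell, at 7.53%, 4.21% and 1.51%. Chga and Ptprn were instead highest in null replicate 2, and Sytl4 fell. Ppy, which encodes pancreatic polypeptide, stood at 1624, 2631 and 5133 RPKM in null replicates 1 to 3, against 4166, 2994 and 3123 RPKM in wild type replicates 1 to 3. Gcg, which encodes glucagon, stood at 5836, 7766 and 10055 RPKM in null replicates 1 to 3, against 8322, 7946 and 8859 RPKM in wild type replicates 1 to 3. In wild type Ppy was highest in replicate 1 and Gcg in replicate 3. The wild-type Vgf values, 3.30 to 3.41 RPKM from about 371 to 414 reads, lay within counting error of each other. Their order therefore cannot be compared with that of Ppy or Gcg. Over the whole lists, 10 alpha cell markers summed to 6401 to 10670 RPKM in null and 8394 to 9357 RPKM in wild type, and 2 PP cell markers to 1631 to 5143 RPKM in null and 3001 to 4176 RPKM in wild type. The 10 Schwann cell and neuron markers summed to 37.8, 43.8 and 58.4 RPKM in null replicates 1 to 3, against 46.7, 41.7 and 42.5 RPKM in wild type replicates 1 to 3. Th, which encodes tyrosine hydroxylase and was picked from that list after its values were seen, stood at 20.5, 24.7 and 36.4 RPKM in the same null libraries, against 22.5, 21.5 and 27.6 RPKM in wild type. None of these markers was at 0 in all libraries, and their part in the spread of Vgf was not tested.

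Of the granule membrane proteins, Ptprn stood at 76.5, 101 and 99.2 RPKM in null libraries, against 71.9, 88.5 and 93.7 RPKM in wild-type libraries. Replicate 1 was the lowest of each genotype, and null replicates 2 and 3 were the highest libraries of all. The log2 difference was 0.12 (SE 0.14, limma adjusted p = 0.84), with a 95% interval from a fold of 0.86 to 1.37. It came to 0.007 without wild type replicate 1, the lowest library.

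Its paralogue Ptprn2 held 132, 142 and 144 RPKM in null libraries, against 125, 122 and 129 RPKM in wild-type libraries. Every null library lay above every wild-type library, with 132 RPKM in the lowest null animal and 129 RPKM in the highest wild-type animal. The mean was 139 ± 6.43 RPKM in null and 125 ± 3.35 RPKM in wild type (SD, n = 3 each), a ratio of 1.11. The log2 difference of 0.15 (SE 0.08, limma adjusted p = 0.59) did not pass, and its 95% interval ran from a fold of 0.98 to 1.26. With 3 animals against 3, a separation of this kind gives a two-sided exact permutation p of 0.1, the smallest the design allows. The difference stayed positive in all 16 alternatives, from 0.129 to 0.240.

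Sytl4 held 54.2, 49.3 and 46.1 RPKM in null libraries, against 51.8, 45.2 and 55.4 RPKM in wild-type libraries. The genotypes overlapped, and Sytl4 was the member that was highest in null replicate 1, where the other 7 were at their lowest among the null libraries. The log2 difference was -0.02 (SE 0.10, limma adjusted p = 0.96), with a 95% interval from a fold of 0.84 to 1.16.

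**Figure D2:**
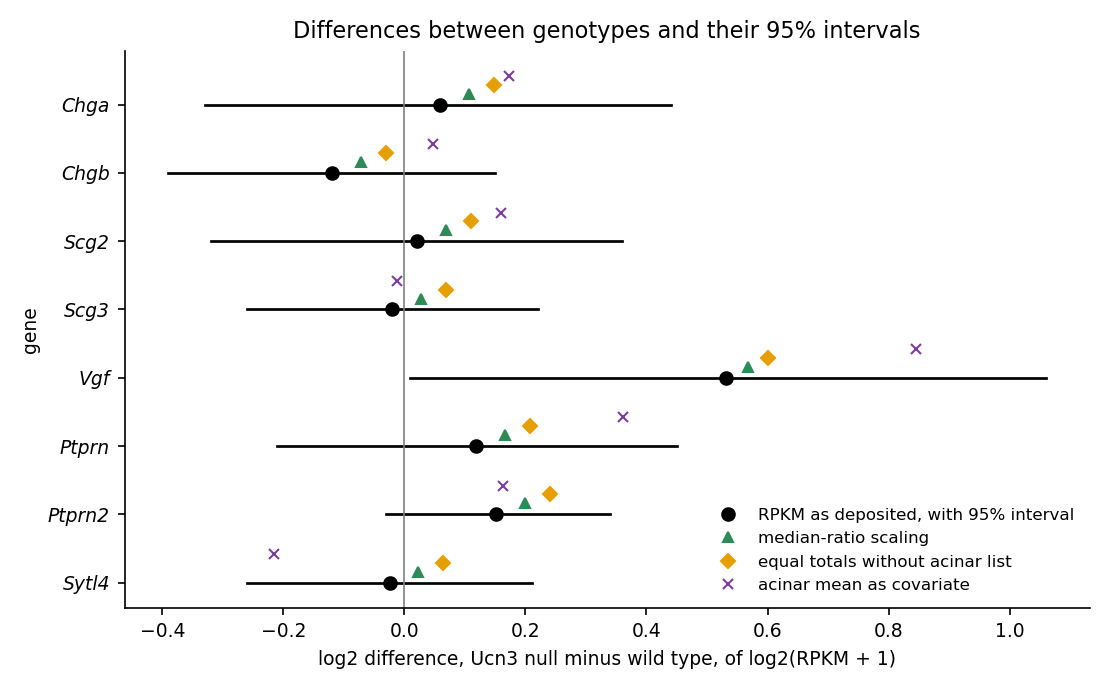
Log2 difference (Ucn3 null minus wild type) of log2(RPKM + 1) for each gene, with black circles for RPKM as deposited, lines for 95% intervals and coloured symbols for other scalings or an acinar covariate. The intervals of 7 genes include 0, and that of Vgf, from 0.01 to 1.06, ends just above it.

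Chga, Chgb, Scg2 and Ptprn were lowest in replicate 1 of both genotypes, the replicate with the largest acinar share of each. In null replicate 1, with 7.53% of RPKM from acinar markers, the deviations from the mean of the 6 libraries were -0.06 for Chga, -0.19 for Chgb, -0.14 for Scg2 and -0.20 for Ptprn on the log2 scale. In wild type replicate 1, with 2.02%, they were -0.09, -0.11, -0.12 and -0.28 for the same genes. Among wild-type libraries, Scg3, Ptprn2, Vgf and Sytl4 were instead lowest in replicate 2, which had the smallest acinar share, 0.158%. After the libraries were set to equal totals without the acinar list, 7 of the 8 differences were positive, Ptprn2 at 0.240, Ptprn at 0.207, Chga at 0.148, Scg2 at 0.110, Scg3 at 0.068, Sytl4 at 0.064 and Vgf at 0.601, and Chgb stood at -0.030, none past the threshold. With the acinar mean as a covariate Ptprn came to 0.362 and Sytl4 to -0.215, likewise not past it (limma adjusted p = 0.98 for each). The acinar mean was itself higher in null on average, 7.46 against 5.20, so this covariate cannot fully separate acinar content from genotype.

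**Figure D3:**
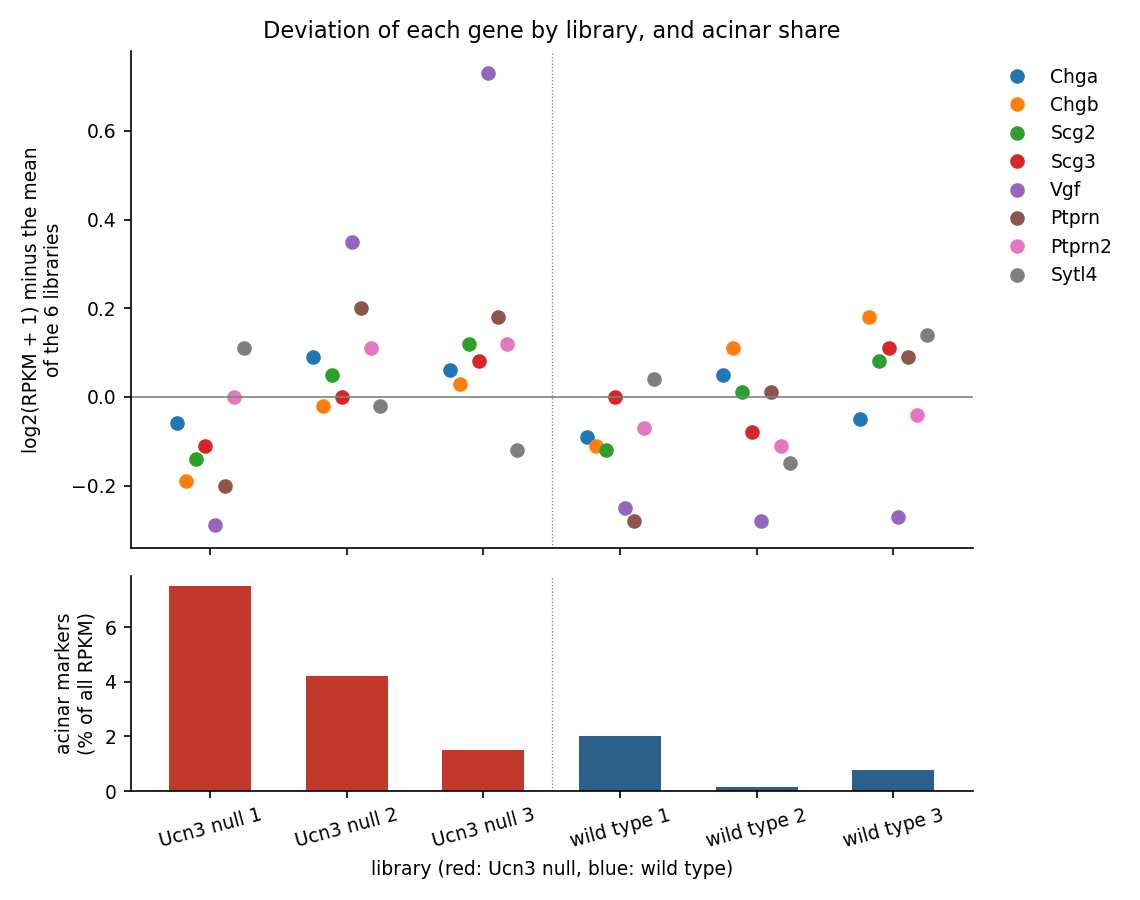
Upper panel: log2(RPKM + 1) of each of the 8 genes minus its mean over the 6 libraries, by library; lower panel: share of all RPKM held by 35 acinar markers in the same libraries (bars, red for Ucn3 null, blue for wild type). Null replicate 1, with an acinar share of 7.53%, holds 7 of the 8 genes at or below their mean, and Vgf in null replicate 3 stands at 0.73.

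Ratios of 2 members within a library do not depend on how libraries are scaled to each other. Chgb, the member with the most negative difference, was in most of the ratios that did not overlap between genotypes. The ratio of Chga to Chgb was 14.2, 14.1 and 13.3 in null libraries, against 13.2, 12.6 and 11.1 in wild-type libraries, so that every null library lay above every wild-type library. The mean ratio was 13.9 ± 0.513 in null and 12.3 ± 1.04 in wild type (SD, n = 3 each). The ratio of Chgb to Scg2 was 0.157, 0.156 and 0.154 in null libraries, against 0.165, 0.174 and 0.175 in wild-type libraries, again without overlap and here lower in null. Between Chga and Scg2 the ratio was 2.23, 2.19 and 2.04 in null libraries, against 2.17, 2.19 and 1.94 in wild-type libraries, and the genotypes overlapped. These ratios were looked at with the values of the genes known.

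Of the 28 pairs of members, 7 had ratios that did not overlap between genotypes, which is 25%, against 14.5% of all pairs of tested genes, and 5 of the 7 pairs were pairs with Chgb. Pairs share genes, so these counts are not independent of each other, and for each pair the smallest two-sided exact permutation p is 0.1. Chgb was low in null relative to Ptprn2 as well, with a ratio of 1.79 ± 0.065 in null and 2.16 ± 0.212 in wild type (SD, n = 3 each). Scg3 to Ptprn2 was 2.16, 2.15 and 2.25 in null libraries, against 2.44, 2.38 and 2.58 in wild-type libraries, likewise without overlap. The paralogues Ptprn and Ptprn2 overlapped, with a ratio of 0.660 ± 0.070 in null and 0.676 ± 0.089 in wild type (SD, n = 3 each).

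**Figure D4:**
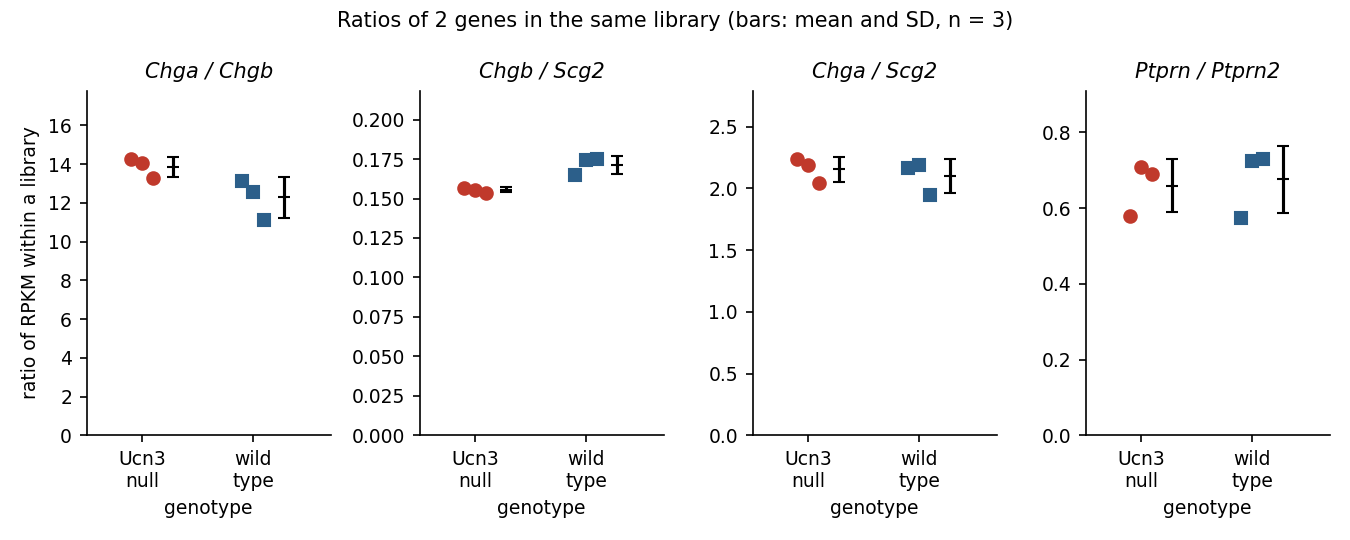
Ratio of the RPKM of 2 genes within each library, for 4 pairs, with red circles for Ucn3 null, blue squares for wild type, and black bars for the mean and SD (n = 3 each). Chga to Chgb is 13.3 to 14.2 in null and 11.1 to 13.2 in wild type, while Chga to Scg2 overlaps.

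Genes of granule cargo, membrane, docking and formation, and genes of the cyclic AMP and activity response, were described in 6 lists. These hold 138 genes, 115 of them tested and none of them members. In limma 0 of the 115 passed over all genes. For the counts that follow, 61.7% of all genes tested had a negative difference and 7.9% were lower at an unadjusted p under 0.05. Prohormone cargo and processing genes, 17 tested of 19, had a median log2 difference of -0.12, with 16 negative and 1 positive, 2 of them lower at an unadjusted p under 0.05 against 7.9% of all genes, and 6 of the 19 are also among the cell type markers. Sst, which encodes somatostatin of delta cells, stood at 831 ± 197 RPKM in null and 2038 ± 329 RPKM in wild type. Dbi, an acyl-CoA binding protein, stood at 16.2 ± 0.561 RPKM in null and 21.2 ± 2.17 RPKM in wild type. Pcsk1, the convertase that makes the first cuts in proinsulin, stood at 94.2 ± 6.95 RPKM in null and 107 ± 6.19 RPKM in wild type (SD, n = 3 each throughout). The genotypes did not overlap for these genes, and their limma adjusted p were 0.34, 0.49 and 0.56.

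Granule membrane and transport genes, such as Rab3 and Rab27 proteins, vesicle SNAREs and transporters, had a median of -0.01 over 21 tested of 25, with 7 positive and 14 negative and 0 at an unadjusted p under 0.05. The smallest p belonged to Sv2c, a vesicle glycoprotein, at 8.82 ± 0.621 RPKM in null and 9.87 ± 0.347 RPKM in wild type. Cd63, a tetraspanin of late endosomes and secretory organelles, was at 130 ± 5.88 RPKM in null and 151 ± 17.9 RPKM in wild type. Tmem27, or collectrin, was at 191 ± 18.1 RPKM in null and 219 ± 15.5 RPKM in wild type (SD, n = 3 each; limma adjusted p from 0.57 to 0.60).

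The relatives of Sytl4 and other effectors of Rab27 had a median of -0.02 over 7 tested of 10, with 2 positive and 5 negative and 1 lower at an unadjusted p under 0.05. Mlph, melanophilin, was at 2.79 ± 0.290 RPKM in null and 3.48 ± 0.190 RPKM in wild type. Sytl3 was at 1.02 ± 0.165 RPKM in null and 1.33 ± 0.061 RPKM in wild type, and Sytl1 at 15.3 ± 1.60 RPKM in null and 17.9 ± 3.02 RPKM in wild type (SD, n = 3 each; limma adjusted p from 0.49 to 0.67). Sytl4, at 45.2 to 55.4 RPKM over the libraries, thus stood above Mlph, Sytl3 and Sytl1 in every library.

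Genes of granule docking, priming and fusion had a median of 0.02 over 23 tested of 27, with 14 positive and 9 negative and 3 lower at an unadjusted p under 0.05. These 3 were Stxbp3a, Stxbp5l and Stx4a. Stxbp3a, a Munc18 protein that binds syntaxin 4, was at 9.45 ± 0.221 RPKM in null and 11.0 ± 0.641 RPKM in wild type. Stxbp5l, a tomosyn that restrains fusion, was at 1.14 ± 0.161 RPKM in null and 1.64 ± 0.244 RPKM in wild type. Stx4a, which encodes syntaxin 4, was at 11.0 ± 1.09 RPKM in null and 13.01 ± 1.31 RPKM in wild type (SD, n = 3 each; limma adjusted p from 0.49 to 0.53).

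Genes of dense-core granule formation had a median of 0.01 over 26 tested of 29, with 14 positive and 12 negative and 0 at an unadjusted p under 0.05. Rab2a, a GTPase needed for granule maturation in worms, was at 70.2 ± 1.33 RPKM in null and 79.1 ± 7.11 RPKM in wild type. Vamp4, a SNARE removed from maturing granules, was at 14.5 ± 0.788 RPKM in null and 15.9 ± 0.605 RPKM in wild type. Ap1s1, a subunit of the clathrin adaptor AP-1, was at 22.9 ± 1.64 RPKM in null and 25.9 ± 2.68 RPKM in wild type (SD, n = 3 each; limma adjusted p from 0.59 to 0.63).

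Genes that respond to cyclic AMP or to cell activity, the setting in which Vgf is best known as a target of CREB, had a median of 0.09 over 21 tested of 28, with 15 positive and 6 negative and 0 at an unadjusted p under 0.05. Crem, a cyclic AMP responsive factor related to CREB, was at 9.04 ± 0.618 RPKM in null and 9.96 ± 0.460 RPKM in wild type. Crtc2, a coactivator of CREB, was at 9.15 ± 0.702 RPKM in null and 8.34 ± 0.325 RPKM in wild type. Creb1 itself was at 4.20 ± 0.116 RPKM in null and 4.64 ± 0.632 RPKM in wild type (SD, n = 3 each; limma adjusted p from 0.63 to 0.73).

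**Figure D5:**
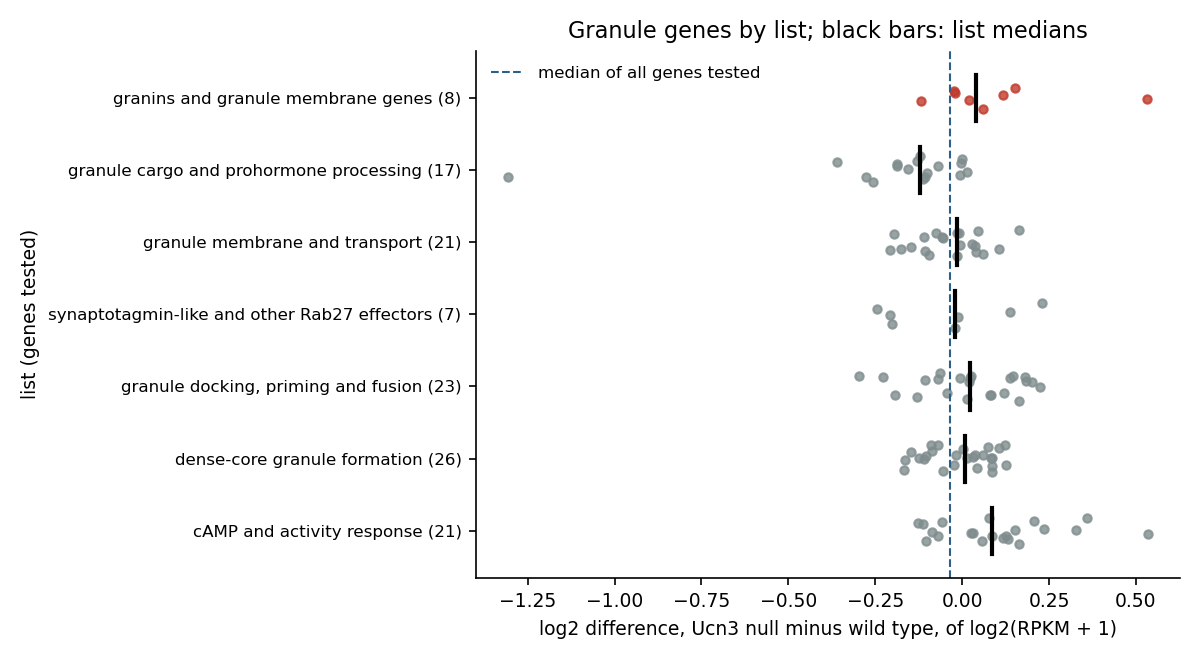
Log2 difference (Ucn3 null minus wild type) of every tested gene of the 8 granin and granule membrane genes (red) and of 6 lists of granule and cyclic AMP response genes (grey), with black bars for list medians and a dashed line for the median of all genes tested, -0.03. List medians run from -0.12 to 0.09, and the point near -1.31 is Sst.

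The genes whose course over the 6 libraries was most like that of a member were sought among genes of at least 10 RPKM, by the root-mean-square distance between log2(RPKM + 1) values centred on their means. Nearest to Chga was the prohormone convertase gene Pcsk2, at a distance of 0.025, and next Lrrc59 at 0.030. Pcsk2 stood at 409, 457 and 449 RPKM in null libraries, against 416, 453 and 432 RPKM in wild-type libraries. Nearest to Chgb were Tmem242 and Jagn1 (0.019 and 0.025), to Scg2 Txlna and Pfkm (0.015 and 0.019), and to Scg3 Agap3 and Nfs1 (0.017 each). For Ptprn2 they were Dpp9 and Pcdhga1 (0.016 and 0.023), for Sytl4 Parp8 and Ccnd2 (0.035 and 0.039), and for Ptprn Ampd2 (0.043) and a row whose symbol the table gives as a number (0.045). Nearest to Vgf were Pcsk4 at 0.195 and Cyfip2 at 0.221. The distances are not scaled for spread, and the root-mean-square spread of Vgf about its own mean was 0.400, against 0.071 for Chga. With a mean of 4.45 RPKM, Vgf also lay below the level set for the genes compared. With 4191 genes compared over 6 libraries, near matches of flat genes are common, and the distances are a description.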

How the data were processed

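The authors deposited RPKM values, with each row a RefSeq transcript and its symbol, for RNA of isolated islets made into libraries with the TruSeq RNA kit, per the labels' protocols. Per the submitters' processing notes, the build was mm9 and the tools included DESeq, STAR and bedtools, with no version or role given. Strand use, the treatment of shared reads and which reads the depth term counts are not given in the sources used here. Reads of a gene and of an overlapping antisense gene may therefore not be told apart. Of 28129 rows, 117 had no values and 1 held text, which left 28011.

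Values were fitted as log2(RPKM + 1) with limma 3.58.1 in R 4.3.3 over all 12652 genes, with group as the only term, a mean trend and Benjamini-Hochberg adjustment. The fit was also run on simulated data with known changes and independent noise for each gene. That simulation held no acinar shift shared between genes, and no result above rests on it. Fold changes on this scale understate those of low genes, and intervals are limma's 95% intervals. Replicates are separate mice. Depth and reads were estimated from RPKM steps and transcript lengths of GENCODE M21, with 69.0% to 70.4% of low values whole within 0.1 read, and cover counting only. Figures were drawn with matplotlib 3.10.9.

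The members and lists were chosen with earlier results of these data known. The text names the members, Ucn3, the 3 genes of smallest p in each companion list, the 2 genes nearest to each member and the leading marker of a cell type. The pairs whose ratios are described were chosen after their values were seen.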

Additional observations from a re-analysis of the deposited data

How the results depend on the processing

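No member passed the threshold in any alternative that gave it a value, the lowest limma adjusted p being 0.22 for Vgf without null replicate 1. Of 127 values of the members under alternatives, 114 kept their direction and 13 changed sign, all in Chgb, Scg2, Scg3 and Sytl4, whose differences were within their standard error or close to it. Chgb was 0.048 with the acinar covariate. With median-ratio scaling, upper-quartile scaling and equal totals without the acinar list, Scg3 was 0.027, 0.015 and 0.068 and Sytl4 0.023, 0.012 and 0.064. Leaving out 1 library gave -0.035 to 0.094 for Scg2, -0.066 to 0.031 for Scg3 and -0.104 to 0.040 for Sytl4. Vgf averaged under 5 RPKM and has no value under that filter. Over all genes, 1 passed as higher without the filter, and 1 rather than 2 as lower with a mean of at least 5 RPKM, with the acinar covariate and with limma-voom. With 1 library left out, 0 to 1 genes passed as higher and 1 to 5 as lower. Without the insulin genes and the acinar list in the total, the granin share was 2.53% in null and 2.40% in wild type, since the total is then smaller. The cause of the other shifts was not tested. In the main fit, with 3 animals a genotype and a mean trend, intervals for the abundant granins reach folds of about 0.8 and 1.3. For Chga and Scg2 this width depends much on the setting. The SE of Chga was 0.17 in the main fit, 0.08 without the mean trend, 0.09 with limma-voom and 0.60 without the filter. That of Scg2 was 0.15, 0.09, 0.10 and 0.31 in the same settings. The SE of Chgb and Scg3 moved less. No paired analysis was possible because the labels pair no null animal with a wild-type one.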
